A study of Homo sapiens with 9 samples.

Results

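CNDP1, TECRL, RGCC, CEROX1 and TAFA5 were 5 of 21457 genes measured in A2780 cells, a human ovarian carcinoma line, after exposure to DIG-MSK, an analogue of mithramycin, a drug that lodges in the minor groove of DNA rich in C and G. Of the 21457, 14074 had a gene symbol. The rest were array features known by accession alone, and they count as genes in every share over all genes below. The 5 genes were selected on measured values: CNDP1, TECRL, RGCC and CEROX1 for the size of their rise at 80 nM, and TAFA5 because it fell at 8 nM and rose at 80 nM. Each gene had 1 probe on the array, and all 5 probes passed the filter on dim signals. Because that filter and the selection both favoured genes that were bright at 80 nM, the differences of all 5 genes at 80 nM, and that of TAFA5 at 8 nM, are given as descriptions without a test.

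The study compared untreated A2780 cells with cells exposed for 24 h to 8 nM or to 80 nM DIG-MSK. Each of the 3 groups held 3 independent cultures, and RNA of each culture was hybridised to a one-colour Agilent array of 62976 spots. All cultures were of a single tumour line with no genetic change, so the groups differed by the labels in drug concentration alone. Slide 1 carried the untreated and 8 nM arrays in a common scan, and slide 2 carried the 80 nM arrays in a scan of their own. Effects of 80 nM DIG-MSK and of the slide therefore cannot be told apart, whereas the 8 nM comparison lay within slide 1.

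The arrays were alike in brightness: the 75th percentile of the gene spots was between 831.7 and 1170 intensity units, and between 24814 and 27151 gene probes were well above background. The average net signal of negative control spots was 31.14 to 38.59 units on slide 1 and 22.09 to 22.68 units on slide 2. Net signal is a measure other than the background-subtracted processed intensity, so these units cannot be set against the readings below. The part of this difference in the results was not tested. No probe of the 5 genes was saturated. Among epithelial markers KRT8, KRT18, KRT19 and EPCAM were well above background on all 9 arrays, CDH1, WT1 and MUC16 on none, and PAX8 on 1 array of each group. The level of a gene is given below as log2 of its processed intensity over the 75th percentile of the same array, so that a level of 0 means as bright as that percentile. Levels of different probes were not set against each other.

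The 5 genes belong to no common pathway. CNDP1 encodes the secreted carnosinase, a metallopeptidase of the M20 family that splits carnosine into its amino acids and is known from brain and serum. TECRL encodes a membrane protein of the steroid 5-alpha-reductase family, related to the enzyme TECR of the fatty acid elongation cycle, and is known from heart muscle, where its loss causes an arrhythmia that arises from faulty calcium release. RGCC encodes a cytoplasmic regulator of the cell cycle that binds the kinase CDK1 and is induced by complement. CEROX1 is a noncoding RNA of the cytoplasm known to raise transcripts of respiratory complex I subunits by competing for a microRNA. TAFA5 encodes a small secreted chemokine-like protein known mainly from the nervous system. Mithramycin and its analogues are known for displacing Sp1 and related factors from GC boxes, the short C/G-rich elements of many promoters.

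RefSeq promoter windows, each of 300 bases that lie mostly ahead of a transcription start, were held for 4 of the 5 genes and are printed because base composition bears on where such a drug can bind. All are of assembly GRCh38.p14, read 5′ to 3′ on the strand of the gene, with capitals marking GC boxes, here the letters GGGCGG or, from the other strand, CCGCCC.
TECRL, chr4:64409411-64409710, minus strand: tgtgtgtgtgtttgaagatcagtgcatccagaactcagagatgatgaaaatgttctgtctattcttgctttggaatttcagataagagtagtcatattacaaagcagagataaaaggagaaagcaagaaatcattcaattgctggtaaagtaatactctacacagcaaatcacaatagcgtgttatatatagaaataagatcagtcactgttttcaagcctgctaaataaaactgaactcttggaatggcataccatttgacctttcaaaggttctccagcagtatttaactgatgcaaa
CNDP1, chr18:74534250-74534549, plus strand: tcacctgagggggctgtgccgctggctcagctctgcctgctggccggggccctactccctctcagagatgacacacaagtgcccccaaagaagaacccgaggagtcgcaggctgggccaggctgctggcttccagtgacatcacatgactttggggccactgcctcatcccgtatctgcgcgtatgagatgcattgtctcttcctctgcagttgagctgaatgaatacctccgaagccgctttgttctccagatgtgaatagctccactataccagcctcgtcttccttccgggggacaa
RGCC, chr13:41457300-41457599, plus strand: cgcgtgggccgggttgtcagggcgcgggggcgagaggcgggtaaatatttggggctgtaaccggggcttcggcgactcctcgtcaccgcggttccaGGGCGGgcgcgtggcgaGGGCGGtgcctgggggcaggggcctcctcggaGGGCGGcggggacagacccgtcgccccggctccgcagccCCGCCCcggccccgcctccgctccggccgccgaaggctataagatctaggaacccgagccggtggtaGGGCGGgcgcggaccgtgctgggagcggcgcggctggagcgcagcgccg
TAFA5, chr22:48576090-48576389, plus strand: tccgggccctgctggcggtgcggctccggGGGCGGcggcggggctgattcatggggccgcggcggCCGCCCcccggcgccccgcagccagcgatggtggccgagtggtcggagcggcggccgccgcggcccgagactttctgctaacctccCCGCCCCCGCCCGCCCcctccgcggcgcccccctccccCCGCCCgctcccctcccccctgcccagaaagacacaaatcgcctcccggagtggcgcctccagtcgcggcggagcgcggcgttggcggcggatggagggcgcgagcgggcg

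The windows of these risers ran from one end of the range of base composition to the other. The TECRL window held 35% G and C bases, lower than in all but 4.3% of the 35116 windows in the table, with 1 CpG and no GC box. The CNDP1 window held 58.0% G and C, near the median of 58.7%, with 11 CpGs against a median of 14 and no GC box. The RGCC window held 76.7% G and C, 44 CpGs and 5 GC boxes. TAFA5 had a window at a further start, chr22:48489303-48489602 on the plus strand, with 87.7% G and C, 67 CpGs and 1 GC box, and the one printed above had 80.7%, 46 CpGs and 6 GC boxes. A GC box on either strand was present in 45% of all windows. The motifs TATAAA and CCAAT, present on either strand in 11.5% and 34.6% of all windows, were in none of those of the 4 genes. For the 100 largest measured rises at 80 nM, 135 windows of 78 genes had a median of 58.7% G and C and 42.2% held a GC box, against a median of 64.3% and a share of 63.4% over the 16029 windows of tested genes. These shares are descriptions of letters in the windows, several windows belong to the same gene, and no binding was measured.

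**Figure D1:**
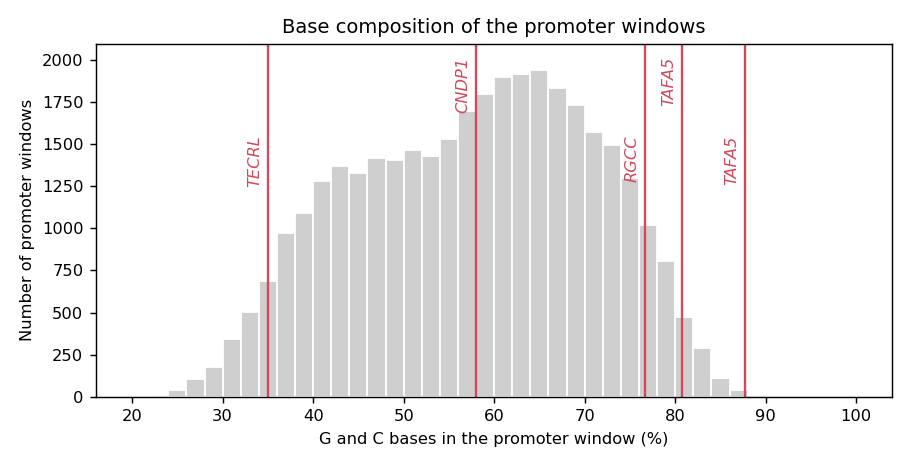
Number of RefSeq promoter windows (vertical axis) by percent of G and C bases in the window (horizontal axis), with red lines at the windows of TECRL, CNDP1, RGCC and TAFA5. TECRL lies at 35%, in the lower tail, CNDP1 at 58.0%, near the middle, and RGCC and both TAFA5 windows between 76.7% and 87.7%, in the upper part.

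All 5 genes were brighter on every 80 nM array than on any array of the other groups. On the log2 scale the median difference of the 5 from untreated cells was 4.0 at 80 nM, with a range of 2.11 to 4.31, beside a median of 0.08 over all genes tested. The RNA came from whole cultures, so more RNA per cell and more cells that express a gene cannot be told apart. Against 8 nM the median was 4.18, with a range of 3.22 to 4.71, beside 0.12 over all genes. At 8 nM the 5 genes went different ways, from -1.10 for TAFA5 to 0.65 for CNDP1, with a median of -0.50 beside -0.06 over all genes.

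The calls below use the fold and p thresholds of the study, a rise of at least 1.5-fold or a fall to 0.67-fold or less and a p under 0.05, taken here as the unadjusted p by limma, with the p adjusted over all 21457 genes beside it. By this rule 18.8% of genes were higher and 16.3% lower at 80 nM than in untreated cells, and 19.5% were higher and 14.1% lower at 80 nM than at 8 nM. At 8 nM 4.25% of genes were higher and 2.84% lower than in untreated cells. Readings of all 3 arrays at 80 nM above all 3 untreated arrays were found for 40.4% of genes, and above all 3 arrays at 8 nM for 39.4%. All 5 genes had both, which the selection fixed.

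**Figure D2:**
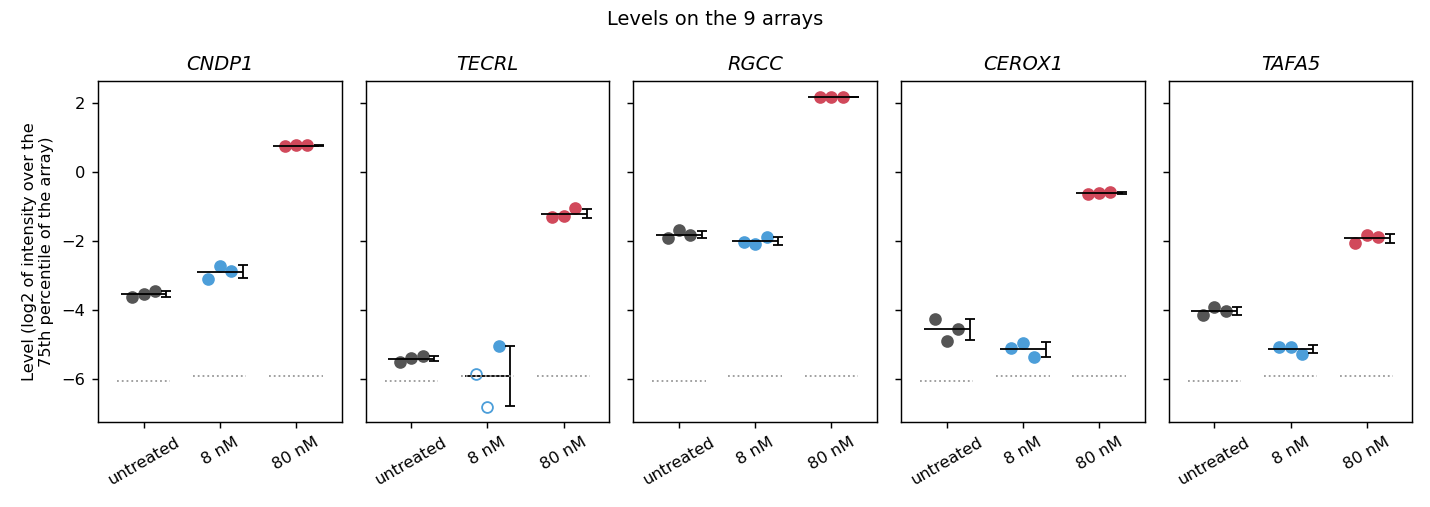
Level of each of the 5 genes on each array (vertical axis, log2 of intensity over the 75th percentile of the array) in the 3 groups (horizontal axis), with the mean as a line and the SD as a bar, n = 3; open circles are readings not well above background and dotted lines mark the group mean of the dimmest signal well above background. All 80 nM points lie above all others, and the 8 nM points lie above the untreated ones for CNDP1 and below them for CEROX1 and TAFA5.

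CNDP1 (NM_032649), the carnosinase, was the one gene of the 5 that was higher at both concentrations. Its levels on the untreated arrays were -3.62, -3.55 and -3.45, at 8 nM -3.09, -2.72 and -2.86, and at 80 nM 0.75, 0.78 and 0.78. The 3 groups did not overlap, and the order untreated, 8 nM, 80 nM held for every array. Processed intensities were 67.7 to 93.5 units without drug, 126.5 to 161.3 at 8 nM and 1529 to 1670 at 80 nM.

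The level of CNDP1 was -3.54 ± 0.08 (SD, n = 3) without drug, -2.89 ± 0.18 at 8 nM and 0.77 ± 0.02 at 80 nM. The difference at 8 nM was 0.65 on the log2 scale, or 1.57-fold, with an SE of 0.10, a 95% confidence interval of 0.43 to 0.88 and an adjusted p of 0.0046 by limma, and it was called higher. All 3 arrays at 8 nM were above all 3 untreated arrays, as for 15.8% of all genes. The call was lost without replicate 2 of the 8 nM group, where the difference was 0.57 and under the fold threshold, with the normexp background correction at 0.37, and in the authors' own values at 0.44. At 80 nM the difference from untreated cells was 4.31, or 19.9-fold, with an interval of 4.08 to 4.54, and from 8 nM it was 3.66, or 12.6-fold. CNDP1 was measured by a pair of spots per array, whose SD was at most 0.20 on the log2 scale.

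TECRL (NM_001010874), the heart protein related to TECR, was read close to background in untreated and 8 nM cells, and varied most between the 8 nM arrays. Its levels were -5.50, -5.41 and -5.34 on the untreated arrays, -5.87, -6.81 and -5.06 at 8 nM, and -1.31, -1.26 and -1.05 at 80 nM. At 8 nM only replicate 3 was well above background, and the 8 nM readings lay on both sides of the untreated ones. The untreated readings, 18.4 to 25.8 units, were well above background on all 3 arrays but only 1.39 to 1.71 times the dimmest signal so marked on the same array.

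The level of TECRL was -5.42 ± 0.08 without drug, -5.91 ± 0.87 at 8 nM and -1.20 ± 0.14 at 80 nM. The difference of -0.50 at 8 nM, with an SE of 0.36 and an interval of -1.33 to 0.33, did not pass the test (adjusted p = 0.38 by limma), and its sign turned with normexp and in the authors' values, both near 0. Without replicate 3 of the 8 nM group, the one array well above background, it was -0.92 and passed the rule for a lower gene. At 80 nM the difference from untreated cells was 4.21, or 18.5-fold, with an interval of 3.38 to 5.04. Against 8 nM, where 1 of 3 arrays was well above background, the estimate was 4.71, and it was 2.53 with normexp and 3.03 in the authors' values. With normexp, which adds an offset to dim signals, the difference from untreated cells was 2.55.

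RGCC (NM_014059), the CDK1-binding regulator, differed little at 8 nM and stood far higher at 80 nM. Its levels were -1.91, -1.69 and -1.84 in untreated cells, -2.02, -2.10 and -1.87 at 8 nM, and 2.19, 2.19 and 2.17 at 80 nM. The untreated and 8 nM readings overlapped, and the 80 nM readings lay above both. In intensity units these were 221.5 to 339.6, 194.5 to 320.1 and 4074 to 4534.

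The level of RGCC was -1.81 ± 0.11 without drug, -2.0 ± 0.12 at 8 nM and 2.18 ± 0.02 at 80 nM. The difference of -0.18 at 8 nM, with an SE of 0.09 and an interval of -0.38 to 0.02, did not pass the test (adjusted p = 0.19 by limma). At 80 nM it was 4.0 from untreated cells, or 16.0-fold, with an interval of 3.8 to 4.19, and 4.18 from 8 nM, or 18.1-fold. With normexp the rise from untreated cells was 3.71, and the untreated readings were 16.7 to 22.5 times the dimmest signal marked well above background on the same array.

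CEROX1 (NR_036442), the noncoding RNA, was lower on all 8 nM arrays than on any untreated array, as were 18.5% of all genes, and higher on all 80 nM arrays. Its levels were -4.26, -4.89 and -4.56 in untreated cells, -5.11, -4.95 and -5.38 at 8 nM, and -0.64, -0.60 and -0.59 at 80 nM. The lowest untreated reading, replicate 2 at -4.89, lay next to the highest at 8 nM, replicate 2 at -4.95, so that these groups were only just apart.

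The level of CEROX1 was -4.57 ± 0.31 without drug, -5.15 ± 0.22 at 8 nM and -0.61 ± 0.03 at 80 nM. The difference at 8 nM was -0.58, or 0.671-fold, with an SE of 0.16 and an interval of -0.95 to -0.20. Its unadjusted p was 0.0072 and its adjusted p 0.052 by limma, and the fold missed the 0.67 of the rule, so CEROX1 was not called. The rule was passed without replicate 2 of the untreated group, at -0.73, and without replicate 1 or replicate 2 of the 8 nM group, at -0.59 and -0.68. At 80 nM the difference from untreated cells was 3.96, or 15.6-fold, with an interval of 3.59 to 4.33, and from 8 nM it was 4.54, or 23.2-fold. With normexp the rise from untreated cells was 2.71.

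TAFA5 (NM_015381), the secreted chemokine-like protein, was the gene selected for opposite signs at the 2 concentrations. Its levels were -4.16, -3.93 and -4.02 in untreated cells, -5.07, -5.08 and -5.27 at 8 nM, and -2.06, -1.83 and -1.88 at 80 nM. The 3 groups did not overlap, with the 8 nM arrays lowest and the 80 nM arrays highest, an order that the selection largely fixed. Over all genes 18.5% had all 8 nM arrays below all untreated ones, and 40.4% had all 80 nM arrays above them. In intensity units the untreated, 8 nM and 80 nM readings of TAFA5 were 46.6 to 72.0, 24.6 to 34.1 and 238.5 to 251.0. All 9 readings were well above background, although those at 8 nM were only 1.60 to 1.91 times the dimmest signal so marked.

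The level of TAFA5 was -4.04 ± 0.12 without drug, -5.14 ± 0.11 at 8 nM and -1.92 ± 0.12 at 80 nM. The difference at 8 nM was -1.10, or 0.465-fold, with an interval of -1.33 to -0.88, and that at 80 nM 2.11, or 4.32-fold, with an interval of 1.89 to 2.34. From 8 nM to 80 nM the level differed by 3.22, or 9.29-fold. Over all genes, 47 or 0.219% were lower at 8 nM and higher at 80 nM by the rule, and TAFA5 was chosen from among them. The 8 nM difference was -0.47 with normexp and -0.60 in the authors' values, so its sign held and its size did not.

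**Figure D3:**
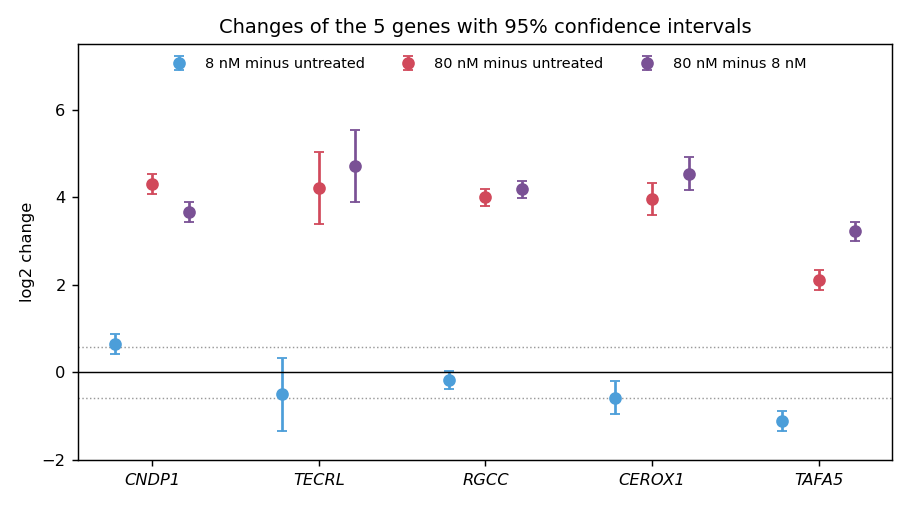
Log2 difference (vertical axis) of each of the 5 genes for 8 nM minus untreated, 80 nM minus untreated and 80 nM minus 8 nM, with 95% confidence intervals from limma; dotted lines mark 1.5-fold and 0.67-fold. The 8 nM values lie between -1.10 and 0.65, and those at 80 nM between 2.11 and 4.31 against untreated cells and between 3.22 and 4.71 against 8 nM. The intervals take no account of the selection of the genes.

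Of the 4 genes other than TAFA5, then, 1 was called higher at 8 nM, CNDP1, beside 4.25% of all genes, and none lower, beside 2.84%. CEROX1 was lower at an unadjusted p under 0.05 by limma but short of the fold. The call of CNDP1 was lost with normexp, in the authors' values and without replicate 2 of the 8 nM group. The untreated arrays that entered the 8 nM comparison had also taken part in choosing the 4 genes. At 80 nM the values of the 4 genes lay between 3.96 and 4.31, a narrow range that their selection fixed, and were further apart with normexp, at 3.55 for CNDP1, 2.55 for TECRL, 3.71 for RGCC and 2.71 for CEROX1.

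Ranked by rise at 80 nM among 4528 named genes with an adjusted p under 0.05, all 80 nM arrays above all untreated ones and all 6 readings well above background, the 4 genes held places 2 to 5. Only VCAN, which encodes the matrix proteoglycan versican, was ahead of them, at 4.36. These places restate the selection, and the ranking was made on the main scale alone. SOX8, a transcription factor gene at place 12, was at 3.05 with normexp, above TECRL at 2.55 and CEROX1 at 2.71. In the authors' values SOX8 was at 3.19, above TECRL at 3.11 and CEROX1 at 3.14. The next gene after CEROX1 was UTS2B, which encodes a urotensin-related peptide, at 3.83, and it differed by 0.01 at 8 nM. TAFA5 was at place 113, between LOC728392 at 2.13 and the noncoding RNA LINC00663 at 2.10; LINC00663 was higher by 1.09 at 8 nM, where TAFA5 was lower. A further 10 named genes had larger estimates than CEROX1 but failed at least 1 of these criteria and were not ranked. Among the 40 largest ranked rises at 80 nM, the 8 nM rule called 5 higher, 2 lower and 33 in neither direction, beside 4.25% higher and 2.84% lower over all genes, with a median 8 nM difference of 0.05 beside -0.06. The untreated arrays were shared by both comparisons.

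**Figure D4:**
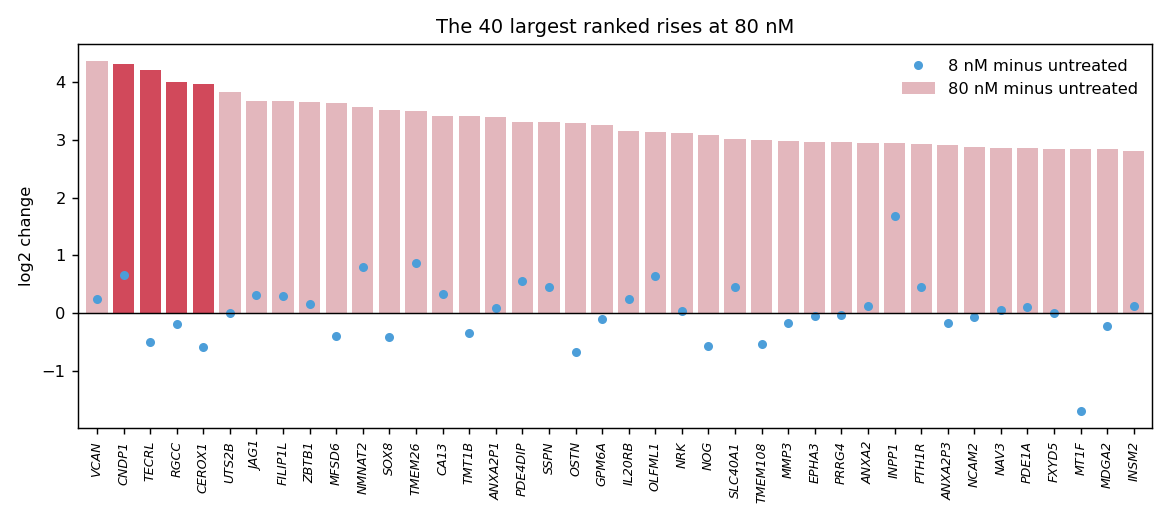
Log2 difference from untreated cells (vertical axis) for the 40 genes with the largest ranked rises at 80 nM (horizontal axis), as bars for 80 nM, dark for CNDP1, TECRL, RGCC and CEROX1, and blue points for 8 nM. The 4 dark bars lie between 3.96 and 4.31 at places 2 to 5, and the blue points scatter around 0 with a median of 0.05.

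The likeness of profiles was measured as the root mean square distance, in log2 units over the 9 arrays, between genes each centred on its own mean, among 14061 named genes with a reading on every array. Among the 5 genes RGCC and CEROX1 were closest, at 0.31, followed by CNDP1 and RGCC at 0.37, and TAFA5 stood apart at 0.78 to 1.00 from the others. Nearest to CNDP1 were JAG1, a Notch ligand, at 0.29, ZBTB1, a zinc finger protein, at 0.34 and FILIP1L at 0.36, and these 3 were well above background on every untreated and 8 nM array. They were higher by 3.66 to 3.67 at 80 nM and by 0.15 to 0.31 at 8 nM on the log2 scale.

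Nearest to RGCC were SOX5 at 0.21, MFSD6 at 0.23 and SOX8 at 0.25, and nearest to CEROX1 were MFSD6 at 0.25, SOX8 at 0.30 and KCND2 at 0.30. SOX5 and SOX8 encode transcription factors, and KCND2 a potassium channel. KCND2 was well above background on 1 untreated and no 8 nM array, and MFSD6 on all untreated arrays and 1 at 8 nM, so their distances rest partly on readings near background. SOX8 was measured on all 9 arrays, with a log2 difference of 3.52 at 80 nM and -0.41 at 8 nM, whereas SOX5 was not well above background on any untreated or 8 nM array and was at least 5.10-fold higher at 80 nM. Nearest to TECRL were SLC38A11 at 0.29, RNF217 at 0.34 and MCOLN3 at 0.35, none of which was well above background on all untreated arrays. Nearest to TAFA5 were BAMBI, a decoy receptor of the TGF-beta family, at 0.29, PTX3, a soluble pattern receptor, at 0.32 and CPLX3, a complexin, at 0.34, of which PTX3 alone was measured on every untreated and 8 nM array, with a log2 difference of -0.41 at 8 nM and 2.45 at 80 nM. These distances describe the same 9 arrays that chose the genes, and they are without a test.

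Genes with a role beside the 5 were followed in 6 lists, of 91 genes in all, of which 71 were tested. At 80 nM 9 of the 71, or 12.7%, were called higher and 7, or 9.86%, lower, both under the shares over all genes, and the median difference was -0.08. At 8 nM 1 was higher, 0 were lower and the median was -0.05, with 8 higher and 13 lower at an unadjusted p under 0.05 by limma at any fold, beside 14.5% and 16.3% of all genes. With spike-in probes as the scale, which moved the median of all genes at 80 nM from 0.08 to -0.20, the counts at 80 nM were 5 higher and 23 lower, beside 2184 and 5604 over all genes in place of 4040 and 3487. The values that follow are relative to the 75th percentile of each array.

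Relatives of TECRL in the fatty acid elongation cycle and the 5-alpha-reductase family were called higher at 80 nM in 5 of 12 tested genes, beside 18.8% of all genes, and lower in 0, beside 16.3%, with a median difference of 0.39. At an unadjusted p under 0.05 by limma at any fold, 7 were higher and 1 lower, beside 35.8% and 27.4% of all genes. HACD1, a dehydratase of the cycle, was higher by 2.04 (adjusted p = 8.2e-07 by limma), and ELOVL3, an elongase, by 1.81 (adjusted p = 4.9e-07). The elongase ELOVL1 was higher by 1.07 (adjusted p = 0.00012), and TECR, the enzyme for which TECRL is named, by 0.83 (adjusted p = 3.7e-05). ELOVL5 was called at 0.61 (adjusted p = 0.0034), but a further probe of it read -0.37, and it was no longer called on the median or spike-in scale. TECR also lost its call on the spike-in scale, at 0.56. The median of the list was then 0.11 with 3 genes higher and 0 lower, beside 2184 and 5604 of all 21457 genes. No gene of this list was called at 8 nM by limma, where ELOVL3 was at 0.49 with an adjusted p of 0.0046 and HACD3 at -0.46 with an adjusted p of 0.0088.

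Of the calcium release genes behind the arrhythmia that loss of TECRL causes, the heart genes RYR2, CASQ2 and TRDN were well above background on no array. Of the 4 genes of this list that were tested, 1 was called higher and 1 lower at 80 nM, beside 18.8% and 16.3% of all genes. The one called lower was KCNJ2, an inward rectifier potassium channel, at -1.43 (adjusted p = 4.8e-06 by limma). CALM2 and CALM3 were at 0.19 and 0.12 and were not called. Among 7 heart muscle markers, MYH6, MYH7, ACTC1 and NPPA were well above background on no array. TNNT2, TNNI3 and MYL7 were tested. Their summed intensity, in units of the 75th percentile, was 0.380 to 0.462 without drug, 0.662 to 1.02 at 8 nM and 0.246 to 0.248 at 80 nM. All 3 were called higher at 8 nM, beside 4.25% of all genes, with a median of 1.03, but 2 were in the authors' values, with a median of 0.61, and 1 with normexp, with a median of 0.57. At 80 nM, where the TECRL level was high, none was called higher and MYL7 was lower, at -1.32 (adjusted p = 0.00083 by limma).

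Relatives of CNDP1 in carnosine handling and the M20 peptidases gave 7 tested genes of 12, with none called at 8 nM. At 80 nM 0 were called higher and 1 lower, beside 18.8% and 16.3% of all genes, with a median of 0.19. The gene called lower was SLC15A3, a lysosomal peptide transporter, at -2.34 (adjusted p = 0.00035 by limma). CNDP2, the cytosolic carnosinase-like dipeptidase, was at -0.17 at 8 nM and 0.19 at 80 nM (adjusted p = 0.16 and 0.054) and was not called. CARNS1, the carnosine synthase, was well above background on no array. Markers of brain and liver, the known sources of carnosinase, were mixed. Of 6 neuron markers 3 were tested, with SYT1 called higher at 80 nM (adjusted p = 0.0019 by limma), where alone it was well above background, and NEFL lower, at -1.95 (adjusted p = 5.5e-06). Their summed intensity was 0.629 to 0.763 in untreated cells, 0.636 to 0.873 with 8 nM and 0.379 to 0.394 with 80 nM, and RBFOX3, GAP43 and STMN2 were above background on no array. Of 4 oligodendrocyte markers 2 were tested, MOG at 0.06 and MAG called higher at 0.59 (adjusted p = 0.002 by limma), which was not called on any other scale run, and their sum was 0.323 to 0.371, 0.252 to 0.322 and 0.368 to 0.415 in the same order of groups. Of 4 liver markers 2 were tested, APOA1 called higher at 0.72 (adjusted p = 0.0056 by limma) and FGB, not well above background at 80 nM, called lower (adjusted p = 2e-05). The call of APOA1 was lost on the spike-in scale, with normexp and in the authors' values, and that of FGB with normexp. These 2 had a sum of 0.0965 to 0.115, 0.0981 to 0.125 and 0.112 to 0.134, and ALB and TTR were above background on no array. The part of these markers in the CNDP1 values was not tested. On the spike-in scale the list of CNDP1 relatives had a median of -0.09 at 80 nM, with 0 genes called higher and 3 lower. Over all 21457 genes 2184 were higher and 5604 lower on that scale.

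Partners and regulators of RGCC were all tested, 8 of 8. At 80 nM 2 were called higher and 0 lower, beside 18.8% and 16.3% of all genes, with a median of 0.08. At an unadjusted p under 0.05 by limma at any fold 3 were higher and 2 lower. Over all genes these shares were 35.8% and 27.4%. CDK1, the kinase that RGCC binds, was higher by 1.13 (adjusted p = 2.8e-06 by limma) at 80 nM and at -0.29 at 8 nM. The cyclins CCNB1 and CCNB2 were at -0.11 and -0.50 and were not called. At 8 nM the list had a median of -0.29, with 5 genes lower and 2 higher at an unadjusted p under 0.05 by limma. Over all genes 16.3% were lower and 14.5% higher in this way. The 5 were CDK1, CCNB1, CCNB2, PLK1 and AKT1, at -0.29 to -0.36, and none was called. SMAD3, a transducer of TGF-beta signals, was higher by 0.77 (adjusted p = 0.00067 by limma). It was the one gene of the 6 lists called at 8 nM, whereas at 80 nM it was at -0.45 and was not called. On the spike-in scale 1 of the 8 was higher and 2 were lower at 80 nM, beside 2184 and 5604 of all 21457 genes, with a median of -0.20.

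The nuclear subunits of respiratory complex I, the transcripts linked to CEROX1, were all tested, 37 of 37, and were well above background on every array. At 80 nM 1 was called higher, NDUFC2 at 0.68 (adjusted p = 0.00032 by limma), and 3 were lower, NDUFA10 at -0.80, NDUFV3 at -0.68 and NDUFA3 at -0.59. Over all genes 18.8% were called higher and 16.3% lower. NDUFA3 was at 0.666-fold and lost its call with quantile normalization, at -0.55, and in the authors' values, at -0.57. The median difference of the 37 was -0.18, with a range of -0.80 to 0.68. At an unadjusted p under 0.05 by limma at any fold 18 subunits were lower and 3 higher, beside 27.4% and 35.8% of all genes. At 8 nM none was called, with a range of -0.26 to 0.21. On the spike-in scale 0 subunits were higher and 14 lower at 80 nM, beside 2184 and 5604 of all 21457 genes, with a median of -0.46. A link between the CEROX1 reading and these subunits was not tested.

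Of the TAFA family and its receptors, 3 of 11 genes were tested, and none of them was a TAFA gene: TAFA1, TAFA2 and TAFA3 were well above background on no array and TAFA4 on 1. S1PR2, a receptor assigned to TAFA5, was at -0.02 at 8 nM and at -0.55 at 80 nM (adjusted p = 0.00043 by limma), short of the fold at 0.682. On the median and spike-in scales S1PR2 was called lower at 80 nM, at -0.62 and -0.83. Of the 3, 2 were called lower at 80 nM, beside 16.3% of all genes. NRXN2, a neurexin, was among them, at -1.36 (adjusted p = 0.0029 by limma), with 1 of 3 arrays at 80 nM above background, and was not called with normexp or in the authors' values. At 8 nM none of the 3 was called. On the median and spike-in scales all 3 were called lower at 80 nM, beside 3989 and 5604 of all 21457 genes.

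**Figure D5:**
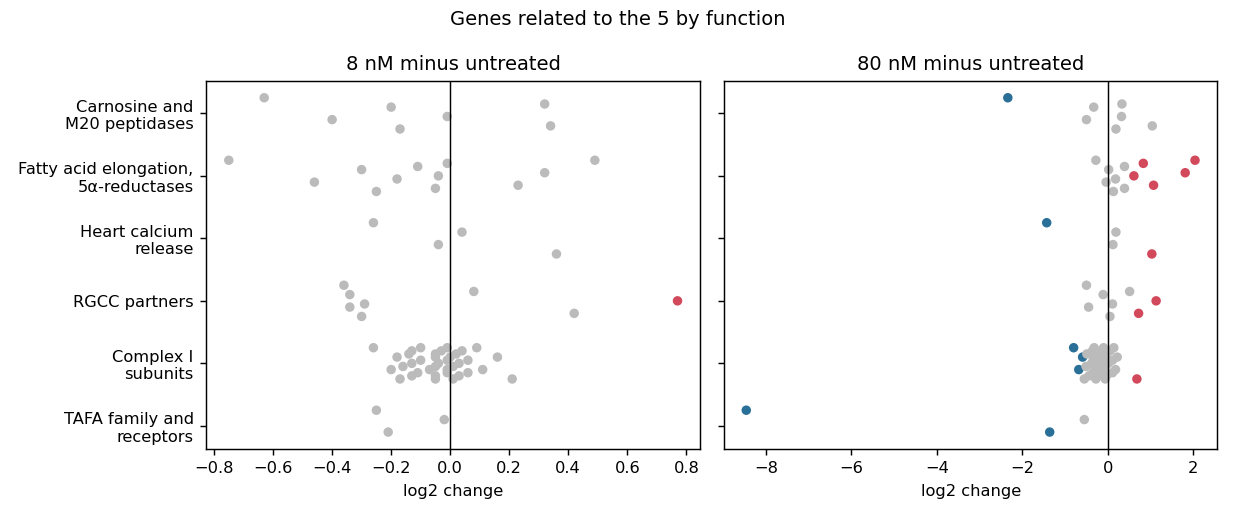
Log2 difference from untreated cells (horizontal axes, on different scales) at 8 nM and at 80 nM for the tested genes of 6 lists related to the 5 genes (rows), 1 point per gene, red where called higher, blue where called lower and grey otherwise. At 8 nM SMAD3 is the one coloured point, and at 80 nM red points are most frequent in the elongation list, with 5 of 12, while the complex I subunits cluster near their median of -0.18.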

How the data were processed

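Total RNA of 9 cultures was labelled with Cy3 and hybridised by the authors to one-colour Agilent human arrays, and scans were read with Agilent Feature Extraction 10.7.3.1. The deposited files hold a processed intensity per spot, background-subtracted by the authors, with flags for outliers and for signal above background. A deposited table of log2 values, normalised by the authors, served as an alternative. The labels and the methods name different labelling kits.

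From the processed intensity, flagged spots were left out, spots of a probe averaged, and log2 of the 75th percentile of each array subtracted. Probes were kept where all 3 arrays of at least 1 group were well above background (26457 of 42405), the brightest standing for a gene. Names came from RefSeq accessions (26360 of 27902 such probes). limma 3.58.1 in R 4.3.3 fitted all 9 arrays, after a test on simulated data, with Benjamini-Hochberg adjustment over 21457 genes. The number of arrays limits the precision.

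The 5 genes and the lists were chosen with earlier results of these data known. Genes named were the 5, their neighbours in the ranking, the 3 nearest profiles, the nearest tested genes on the chromosome, and called or defining members of the lists; further list members that were not called were named after their values were seen. Some called members are counted but not reported here by name. Alternatives were normexp (offset 50, on median spot signals), quantile, median and spike-in scaling, filters, probe means, fits of 2 groups, an adjusted threshold, a replicate block and leaving out each array. The main fit did not pair samples by replicate number, and the labels do not say whether the numbers pair them. Between untreated and 8 nM arrays the same-number correlations of deviations were 0.113, 0.0999 and 0.159. Those of different numbers lay between -0.123 and -0.005. Same-number correlations with the 80 nM arrays lay between -0.120 and 0.016. Values with the replicate block are given below.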

Additional observations from a re-analysis of the deposited data

How the results depend on the processing

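The direction of the 80 nM differences of the 5 genes held under every alternative run, while their size moved, for causes that were not tested. The median of the 5 against untreated cells, 4.0, was 2.71 with normexp, 3.72 on the spike-in scale and 3.14 in the authors' values. Against 8 nM, 4.18 became 2.98, 3.82 and 3.39, and 3.92 with probes required above background on all 9 arrays, where TECRL dropped out. TAFA5 at 8 nM, -1.10, became -0.47 with normexp and -0.60 in the authors' values. With these same alternatives the number of the 4 other genes called higher at 8 nM was 0, with CNDP1 at 0.37 and 0.44, and TECRL at 8 nM turned to 0.023 and 0.083. On the spike-in scale 5 related genes were higher and 23 lower at 80 nM in place of 9 and 7, and without a filter 2 were higher at 8 nM in place of 1. With 1 array left out in turn, between 0 and 1 of the 4 genes were called higher and between 0 and 1 lower at 8 nM, and between 0 and 2 related genes lower, 2 without replicate 1 and 1 without replicate 3 of the 8 nM group. With the replicate block, in which same-numbered samples were paired, CNDP1 at 8 nM was 0.65 and still called, the median at 80 nM was 4.0, and no other call of the 5 genes or related counts changed. Readings of TECRL, CEROX1 and TAFA5 close to the dimmest detectable signal limit their untreated and 8 nM values.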

Other observations

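The tested genes nearest to the 5 along their chromosomes, in RefSeq order, gave these values. CEROX1 on chromosome 16 had SOX8, a transcription factor gene, directly beside it with 0 genes between, and SOX8 was higher at 80 nM by 3.52 (SE 0.09, adjusted p = 5e-08 by limma), with a range of 3.05 to 3.52 over the scalings and background corrections, and at -0.41 at 8 nM (adjusted p = 0.024), short of the fold. SOX8 was also among the 3 profiles nearest to CEROX1. On the other side of CEROX1 LMF1, with 9 genes between, was higher at 80 nM by 0.80 (adjusted p = 8.7e-05 by limma). CNDP1 on chromosome 18 had CNDP2 directly beside it, which was not called at either concentration. On the other side, with 1 gene between, ZNF407-AS1 was higher at 80 nM by 0.79 (adjusted p = 0.00013 by limma). Other probes of ZNF407-AS1 read 0.57 and 0.45, short of the fold.

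TECRL on chromosome 4 lay between POLR2B, with 42 genes between, at 0.45 at 80 nM and not called, and EPHA5, with 18 genes between, higher by 2.39 (SE 0.43, adjusted p = 0.0016 by limma) but above background on 1 untreated array and on no 8 nM array. RGCC on chromosome 13 lay between OR7E37P, directly beside it, and VWA8, with 2 genes between. They were at 0.18 and 0.20 at 80 nM and were not called there. VWA8 was lower at 8 nM by the probe that stands for it, at -0.59 (adjusted p = 0.028 by limma), and at 0.01 by its other probe. TAFA5 on chromosome 22 lay between TBC1D22A, with 16 genes between, and LINC01310, with 3 genes between. TBC1D22A was lower at 8 nM and at 80 nM, at -0.90 and -0.89 (adjusted p = 0.00067 and 6.4e-05 by limma). LINC01310 was at 0.14 at 80 nM by one probe and 1.28 by another.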
